A study of Saccharomyces cerevisiae with 15 samples.

Results

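The histone genes of budding yeast were followed at the level of mRNA and of ribosome footprints (mRNA fragments protected by ribosomes) in young and old mother cells. The 10 genes were chosen by their systematic names from the 7127 genes of the count files. They are HTA1 (YDR225W) and HTA2 (YBL003C) for histone H2A, HTB1 (YDR224C) and HTB2 (YBL002W) for H2B, HHT1 (YBR010W) and HHT2 (YNL031C) for H3, and HHF1 (YBR009C) and HHF2 (YNL030W) for H4, with HTZ1 (YOL012C) for the variant H2A.Z and HHO1 (YPL127C) for linker histone H1. All 10 passed the filter on low counts in every fit, with 113 to 5142 counts per library. The study used the Mother Enrichment Program strain UCC8773 as wild type and a derivative of it that lacks CTH2 (listed as TIS11 in the reference annotation), the gene of a protein that binds AU-rich elements and promotes mRNA decay when iron is scarce. In such a strain, estradiol switches on a Cre recombinase that is driven by the daughter-specific SCW11 promoter and removes 2 genes needed for division, UBC9 and CDC20, so that daughters arrest while mothers go on dividing. All groups, wild type included, carried this system, were grown with nourseothricin and hygromycin B before biotin labelling and then in YPD with estradiol, and were captured on beads. The culture lasted 2 h for young and 30 h for old cells. This gave 8 groups of strain (wild type or deletion), age (young or old) and assay (RNA-seq or ribosome profiling) with 2 libraries each, except RNA-seq of old deletion cells with 1 library. The labels do not say whether replicates were separate cultures, so p-values measure only the spread between these libraries.

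Core histones form the protein core around which DNA is wrapped, with H2A, H2B, H3 and H4 present in equal amounts. In yeast each is encoded by a pair of genes, arranged head to head with a gene of the partner histone (H2A with H2B, H3 with H4) and transcribed mainly in S phase. Unlike the replication-dependent histone mRNAs of animals, those of yeast are polyadenylated, so poly(A) selection as used here recovers them. H2A.Z replaces H2A beside promoters and is exchanged by the SWR1 complex, and H1 binds linker DNA. Yeast histone levels are known to fall in replicative aging at the protein level.

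The copies of each core histone are near-identical, which bears on every value given per copy, and the stretch of 60 coding bases in which the copies differ most is shown for each pair. Bases that differ from the other copy are in capitals, written 5′ to 3′ on the coding strand, from the R64 reference genome. Both H2A stretches cover coding bases 337 to 396, both H2B stretches 48 to 107, both H3 stretches 286 to 345 and both H4 stretches 163 to 222.
HTA1: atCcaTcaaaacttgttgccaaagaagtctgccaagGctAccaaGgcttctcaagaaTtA
HTA2: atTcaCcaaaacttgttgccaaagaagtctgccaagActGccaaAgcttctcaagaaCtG
HTB1: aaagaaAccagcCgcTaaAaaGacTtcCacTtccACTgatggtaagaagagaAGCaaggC
HTB2: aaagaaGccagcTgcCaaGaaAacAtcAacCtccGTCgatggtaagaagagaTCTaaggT
HHT1: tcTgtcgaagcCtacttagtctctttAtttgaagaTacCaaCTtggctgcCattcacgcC
HHT2: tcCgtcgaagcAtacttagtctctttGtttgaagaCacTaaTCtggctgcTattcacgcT
HHF1: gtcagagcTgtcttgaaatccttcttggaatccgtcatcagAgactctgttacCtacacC
HHF2: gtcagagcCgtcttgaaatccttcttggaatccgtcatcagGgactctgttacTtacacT

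The H2A stretches lie at chrIV:915866-915925 (plus strand, HTA1) and chrII:235397-235456 (minus strand, HTA2), and the H2B stretches at chrIV:914606-914665 (minus strand, HTB1) and chrII:236539-236598 (plus strand, HTB2). The H3 stretches lie at chrII:256616-256675 (plus strand, HHT1) and chrXIV:575706-575765 (minus strand, HHT2), and the H4 stretches at chrII:255463-255522 (minus strand, HHF1) and chrXIV:576889-576948 (plus strand, HHF2). Each gene is a single coding sequence in R64, and none overlaps another annotated gene. The whole coding sequences are HTA1 at chrIV:915530-915928, HTA2 at chrII:235394-235792, HTB1 at chrIV:914317-914712 and HTB2 at chrII:236492-236887. The H3 and H4 genes are HHT1 at chrII:256331-256741, HHT2 at chrXIV:575640-576050, HHF1 at chrII:255373-255684 and HHF2 at chrXIV:576727-577038. HTZ1 lies at chrXV:303579-303983 and HHO1 at chrXVI:308828-309604, both on the minus strand.

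HTA1 and HTA2 were identical at 93.7% of 399 coding bases, HTB1 and HTB2 at 87.9% of 396, HHT1 and HHT2 at 93.2% of 411, and HHF1 and HHF2 at 97.4% of 312. The H3 proteins of the copies were identical, as were the H4 proteins. The H2A proteins differed by A125T and T126A and the H2B proteins by A3S, K4A, T28V and A36V (the first copy's residue, its position counted from 1 at the first methionine, then the other copy's residue). H2A.Z shared 80 of 127 aligned residues with the H2A of HTA1 (63.0%). At a footprint-like length of 28 bases, 97.3% of the positions in an H2B gene occurred only once in the genome, against 85.2% in an H2A, 73.4% in an H3 and 54.4% in an H4 gene, and 100% in HTZ1 and HHO1. At 50 bases, the lower limit of the mRNA fragments, the shares were 100% for H2B, 95.4% for H2A, 87.8% for H3 and 78.7% for H4. How reads that match both copies were counted is not given in the sources used here. For levels and for changes of mRNA and footprints with age, values of the summed copies are therefore given beside those of each copy. Such sums do not depend on that division unless such reads were dropped. Comparisons of strains and of footprints with mRNA are given mainly per copy and carry this limit.

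Libraries held 1629345 to 6198680 counts, and the 8 core genes took 0.310% to 0.446% of them. TIS11 had 28 to 60 counts in young and 288 to 516 in old wild-type libraries, against 1 to 3 in young and 2 to 17 in old deletion libraries. Replicates of young groups stood further apart than those of old groups, with a biological coefficient of variation of 26.4% to 29.3% in young against 7.57% to 8.45% in old groups, each fitted alone. In bulk samples like these, fewer cells of a type and less RNA per cell cannot be told apart. Levels are given as CPM (counts relative to library size, with TMM scaling of the libraries of an assay). A call means an adjusted p under 0.05 in edgeR's quasi-likelihood test, with Benjamini-Hochberg adjustment over all genes tested. Where groups are said not to overlap, only the libraries are described. The share of all genes without overlap was not determined.

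Core histone mRNAs were among the abundant messages, and the variant and linker histones were expressed at lower levels. Per kilobase of coding sequence, the H3 gene HHT2 had the highest mean mRNA level in young wild-type cells, 2199.7 ± 374 CPM per kb (SD, n = 2), and HTB2 the lowest of the core genes, 1075 ± 377 CPM per kb. HHF2 (1811 ± 225 CPM per kb) and HHT1 (1795 ± 286 CPM per kb) came next after HHT2. HTA2 (1493 ± 45.4), HHF1 (1479 ± 127), HTB1 (1410 ± 222) and HTA1 (1129 ± 132 CPM per kb) followed. In this order no core gene differed from its neighbour by more than the sum of their SDs. HTZ1 at 223 ± 50.6 CPM per kb and HHO1 at 108 ± 22.8 CPM per kb stood below every core gene. In these terms all 8 core genes lay above 96.0% or more of the 5991 mRNAs tested, HTZ1 above 86.2% and HHO1 above 74.2%.

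The order differed in footprints of the same young wild-type cells. HTB1, the more expressed H2B gene, led with 1986 ± 122 CPM per kb, followed by HHT2 with 1763 ± 202 CPM per kb, a difference within the sum of their SDs. HHT1, HTB2, HTA1, HHF2 and HHF1 lay between 1182 and 1321 CPM per kb, with SDs of 34.9 to 172, and neighbours among them did not differ beyond their spread. HTA2 came last among core genes with 919 ± 48.3 CPM per kb. HHO1, at 237 ± 1.42 CPM per kb, stood above HTZ1, at 186 ± 33.1 CPM per kb, which is the reverse of their order in mRNA. Dividing by uniquely matching positions instead of the coding length raised the H4 genes most: HHF1 went from 1182 to 2379 and HHF2 from 1198 to 2412 CPM per kb of footprints, and the H4 values per length rest on how shared reads were counted.

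With the copies summed, the 4 core histones did not have equal levels per kilobase. In mRNA of young wild-type cells H3 had 3994 ± 88.2, H4 3291 ± 97.5, H2A 2622 ± 87.0 and H2B 2485 ± 599 CPM per kb. In their footprints H2B had 3274 ± 254, H3 3083 ± 35.2, H4 2380.4 ± 206 and H2A 2168 ± 207 CPM per kb. In footprints of old wild-type cells H3 was highest at 2743 ± 171, with H2B at 2039 ± 281, H4 at 1564 ± 167 and H2A at 1347 ± 238 CPM per kb. The same order held in old deletion cells, where H3 had 2732 ± 47.5, H2B 1765 ± 39.5, H4 1448 ± 4.62 and H2A 1256 ± 1.61 CPM per kb. The lead of H2B over H3 in young wild-type footprints lay within the sum of their SDs. The order also depends on the length used: per uniquely matching position, HHF1 and HHF2 (2379 and 2412 CPM per kb) lay above HTB1 and HTB2 (2191 and 1420 CPM per kb).

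**Figure D1:**
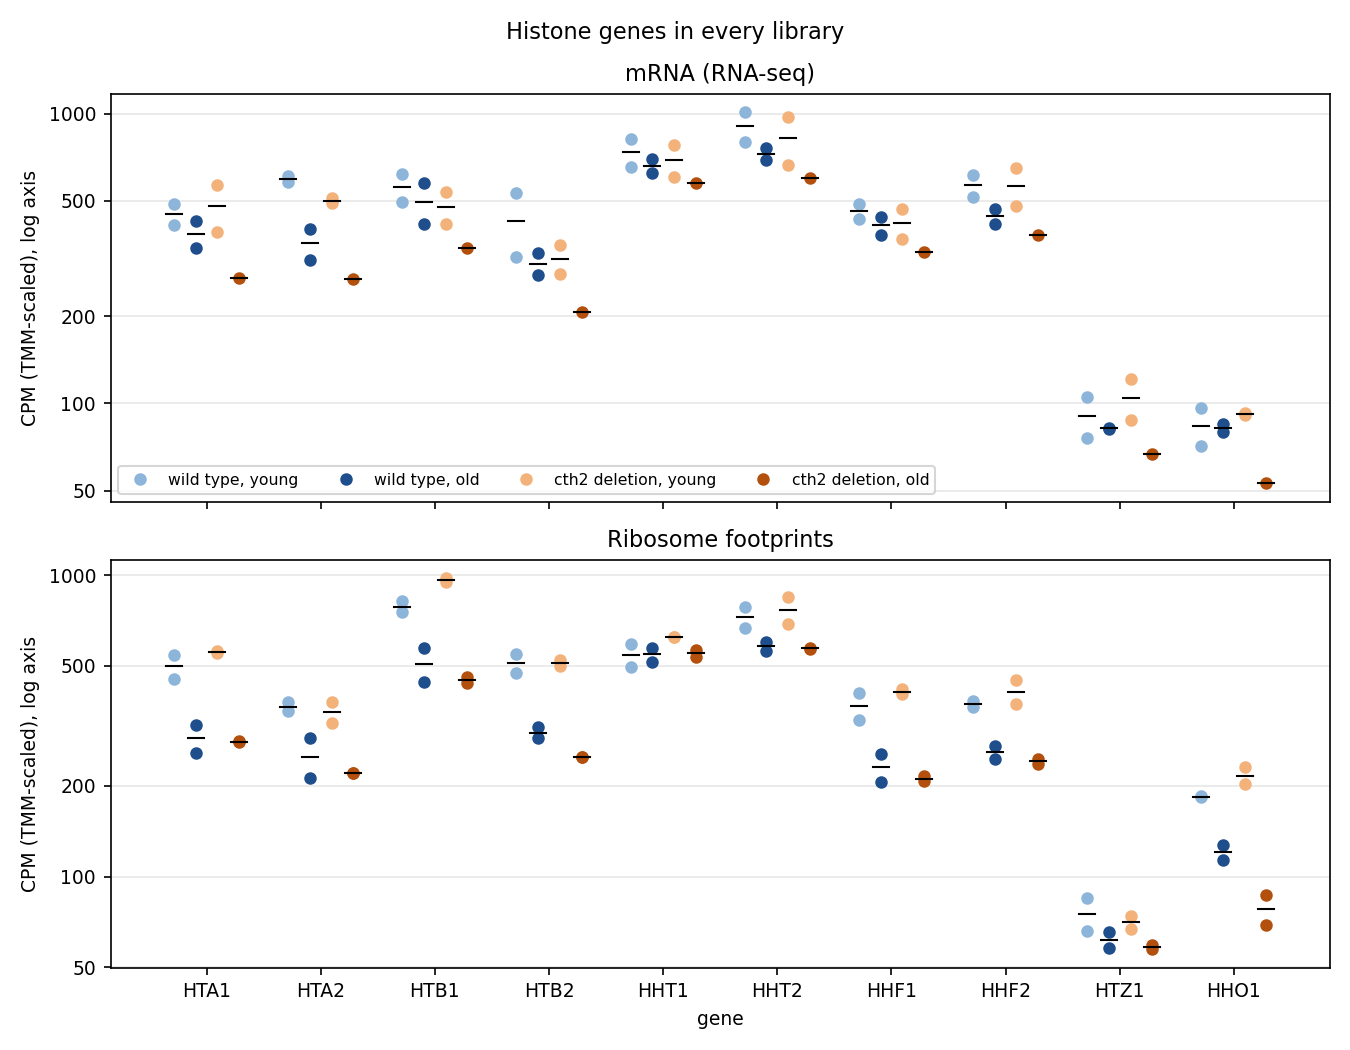
Level of each histone gene in every library, as CPM after TMM scaling within the assay on a log axis, for mRNA (top) and ribosome footprints (bottom). Points are libraries and lines are group means. HHT2 reached 1013 CPM in mRNA, and HTZ1 and HHO1 mRNA did not exceed 121 CPM. Old footprint values lie below young ones for HTA1, HTA2, HTB1, HTB2, HHF1, HHF2 and HHO1 in both strains. The log2 fold changes of these genes also stayed below 0 with library-size scaling alone, although HTA2 in wild type then overlapped between the ages.

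The study compared old with young mothers, and in wild type no histone mRNA passed the test. Of the 10 histone genes edgeR called 0, against 0.951% of all 5991 mRNAs tested, of which 52 were higher and 5 lower. DESeq2 also called 0 of the 10, and 1 of them (HTA2) had an unadjusted p under 0.05. The 10 log2 fold changes lay between -0.74 and -0.03, with a median of -0.20 against 0.00 for all mRNAs. When counts were scaled by library size alone the median of all mRNAs moved by 0.31, and 7 of the 10 genes then had values above 0.

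HTA2 had the lowest value. Its mRNA stood at 608 and 583 CPM in young and 401 and 312 CPM in old wild-type cells, so that the groups did not overlap. The log2 fold change was -0.74 ± 0.20 (SE) with an adjusted p of 0.147, and from -0.93 to -0.43 over the alternative settings with adjusted p from 0.0593 to 0.718. HTB2 mRNA overlapped between the ages, with 320 and 531 CPM in young and 330 and 278 CPM in old cells (-0.49 ± 0.28, adjusted p = 0.367). The H1 gene HHO1 had 71.3 and 96.4 CPM in young and 79.9 and 85.1 CPM in old cells (-0.03 ± 0.20). HTZ1 had 76.0 and 105 CPM in young and 81.7 and 82.4 CPM in old cells (-0.14 ± 0.24). Of HHO1 and HTZ1, the old values lay within the range of the young ones. The other mRNAs lay between -0.35 (HHF2) and -0.16 (HHT1), and the summed copies gave -0.50 for H2A, -0.30 for H2B, -0.24 for H3 and -0.27 for H4, none of them called.

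In footprints of wild-type cells, old against young, HTB2 (H2B) fell, as 1 of 10 histone genes called, against 2.98% of the 5308 genes tested (0.961% lower). The estimates lay below 0 for 9 of the 10, and for 7 with library-size scaling alone. The median log2 fold change of the 10 was -0.58, against 0.01 for all genes. HTB2 had 473 and 547 CPM in young and 314 and 287 CPM in old cells, with no overlap. Its log2 fold change was -0.76 ± 0.14 (SE), with an adjusted p of 0.0398. That call was lost when any of the 4 libraries was left out, where the value lay between -0.87 and -0.66 and adjusted p between 0.0645 and 0.352. DESeq2 called HTA1, HTB1 and HHF1 as well.

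HTA1 footprints stood at 453 and 543 CPM in young and 317 and 258 CPM in old wild-type cells (-0.79 ± 0.16, adjusted p = 0.0538). HTB1 had 752 and 821 CPM in young and 573 and 441 CPM in old cells (-0.63 ± 0.17, adjusted p = 0.0924). Neither gene overlapped between the ages, and neither passed the threshold in edgeR. HHF1, with 331 and 407 CPM in young and 255 and 205 CPM in old cells, had a log2 fold change of -0.68 ± 0.17 (adjusted p = 0.0845). HHF2, with 366 and 382 CPM in young and 270 and 246 CPM in old cells, had -0.54 ± 0.15 (adjusted p = 0.102). The linker histone gene HHO1 had 183 and 185 CPM in young and 127 and 113 CPM in old cells (-0.61 ± 0.17, adjusted p = 0.0976). HTA2 had 353 and 380.2 CPM in young and 287 and 213 CPM in old cells (-0.55 ± 0.18, adjusted p = 0.142). At TMM scaling the old groups of these 4 genes also lay wholly below the young groups, which adds nothing to a test that was not passed. Relative to total counts alone, the HTA2 groups overlapped.

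The H3 genes and HTZ1 had the smallest differences. HHT1 footprints were at 494 and 591 CPM in young and 575 and 516 CPM in old wild-type cells, and the old values lay within the young range (0.01 ± 0.15, adjusted p = 0.979). HHT2 had 783 and 666 CPM in young and 602 and 561 CPM in old cells (-0.32 ± 0.16, adjusted p = 0.284). HTZ1 had 65.7 and 84.7 CPM in young and 57.9 and 65.2 CPM in old cells (-0.29 ± 0.17, adjusted p = 0.332). For HHT2 and HTZ1 the old values lay below the young ones without overlap. With library-size scaling alone, which moved the median of all genes by 0.34, HHT1, HHT2 and HTZ1 were above 0 and the other 7 below. The summed copies gave -0.69 ± 0.17 for H2A, -0.68 ± 0.16 for H2B, -0.61 ± 0.15 for H4 and -0.17 ± 0.14 for H3, none of them called in edgeR.

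In the strain lacking CTH2, footprints of 7 of the 10 histone genes fell with age, at a background of 17.2% of 5308 genes called (8.06% lower). HTA1, HTA2, HTB1, HTB2, HHF1, HHF2 and HHO1 fell, whereas both H3 genes and HTZ1 did not pass the test. The median of the 10 was -0.87, against 0.00 for all genes, of which 486 were called higher and 428 lower. The number of calls rested on both old deletion libraries: without replicate 1 of that group 0 of the 10 were called, with 57 genes called in all, and without replicate 2 only HHO1 was, with 46 in all. Without replicate 1 the log2 fold changes of these 7 genes lay between -1.31 (HHO1) and -0.67 (HTA2).

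HHO1, the H1 gene, fell most. Its footprints stood at 230.2 and 203 CPM in young and 68.8 and 87.1 CPM in old deletion cells, 2.76-fold lower in old cells (log2 -1.47 ± 0.17, adjusted p = 0.00491). Every old value lay below every young value by more than the spread of either group.

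The H2B genes fell by about the same amount. HTB1 had 951 and 977 CPM in young and 461 and 438 CPM in old deletion cells (-1.10 ± 0.17, adjusted p = 0.0116). HTB2 had 524 and 499 CPM in young and 249 and 249.7 CPM in old cells (-1.04 ± 0.14, adjusted p = 0.00860). Of the H2A genes, HTA1 had 562 and 550.0 CPM in young and 280 and 281 CPM in old cells (-0.99 ± 0.16, adjusted p = 0.0136). HTA2 had 380 and 323 CPM in young and 221 and 221 CPM in old cells (-0.67 ± 0.18, adjusted p = 0.0471). HTA2 was the call nearest to the threshold, and it was also lost without either young deletion library (adjusted p = 0.0991 without replicate 1 and 0.0666 without replicate 2).

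Of the H4 genes, HHF1 had 418 and 404 CPM in young and 207 and 215 CPM in old deletion cells (-0.96 ± 0.17, adjusted p = 0.0166). HHF2 had 373 and 448 CPM in young and 246 and 236 CPM in old cells (-0.77 ± 0.15, adjusted p = 0.0204). HHF2 was also lost without young replicate 2 (adjusted p = 0.0637). With library-size scaling alone, which moved the median of all genes by 0.46, HTA1, HTB1, HTB2 and HHO1 remained called while HTA2, HHF1 and HHF2 did not.

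Footprints of the H3 genes differed less between the ages. HHT1 had 626 and 624 CPM in young and 566 and 536 CPM in old deletion cells (-0.18 ± 0.15, adjusted p = 0.408). HHT2 had 686 and 845 CPM in young and 571 and 573 CPM in old cells (-0.42 ± 0.16, adjusted p = 0.116). HTZ1 had 73.9 and 67.1 CPM in young and 59.4 and 57.3 CPM in old cells (-0.27 ± 0.17, adjusted p = 0.289). The old groups lay below the young ones for all 3 genes at TMM scaling, and their log2 fold changes were above 0 with library-size scaling alone. Summed over the copies, H2A (-0.86 ± 0.17, adjusted p = 0.0225), H2B (-1.08 ± 0.16, adjusted p = 0.0105) and H4 (-0.86 ± 0.15, adjusted p = 0.0159) fell, and H3 was not called (-0.31 ± 0.14, adjusted p = 0.161). Whether H3 differed from the other histones in its change was not tested.

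**Figure D2:**
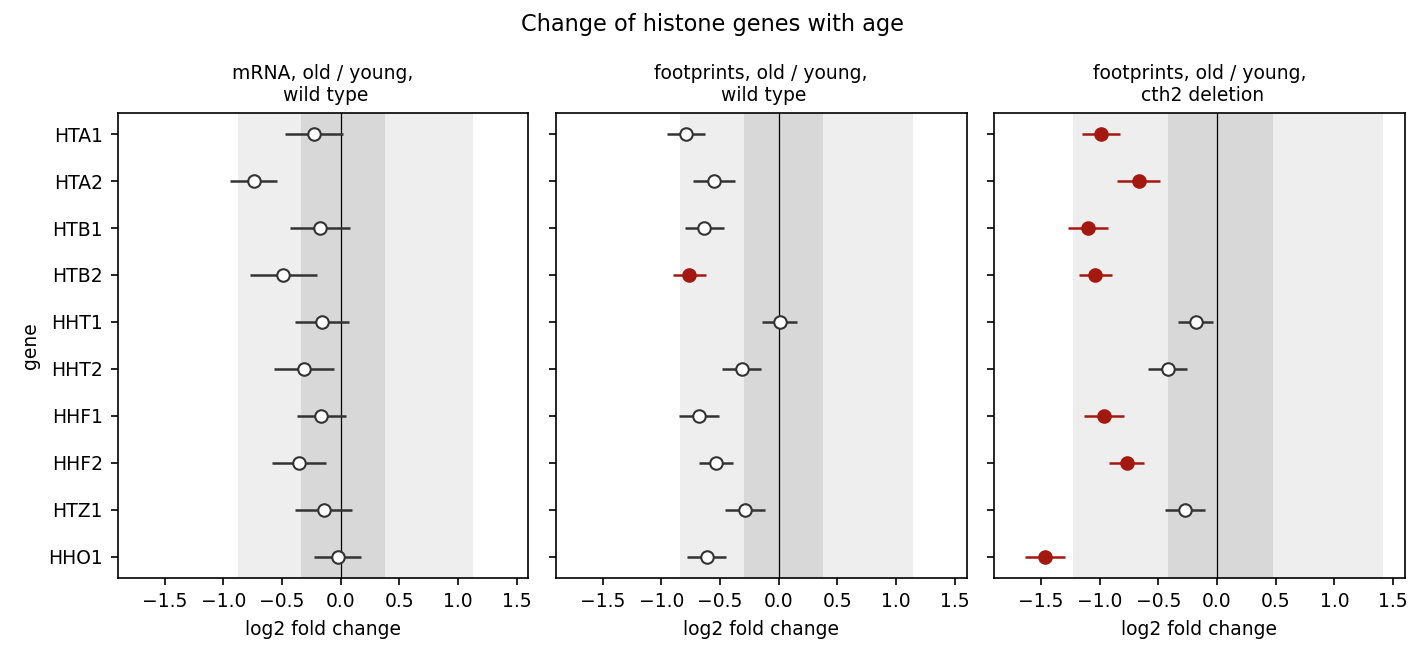
Log2 fold change, old against young, of each histone gene in 3 comparisons, with SE bars (edgeR); filled red points were called at an adjusted p under 0.05, and grey bands span the inner quartiles (dark) and the 5th to 95th percentile (light) of all genes tested. Red points number 0, 1 and 7 of 10 from left to right; with library-size scaling alone HHT1, HHT2 and HTZ1 move above 0 in both footprint panels and 7 of 10 genes in the mRNA panel.

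Only 1 RNA-seq library of old deletion cells was used, so its values are a description with no replicate check. At TMM scaling all 10 histone mRNAs were lower in it than in both young deletion libraries and in both old wild-type libraries. The share of all mRNAs that were lower in this way was not determined. Relative to total counts alone, HHT1 and HHF1 were instead higher in it than in both young deletion libraries. HTB1, HHT2, HHF2 and HTZ1 then lay between the young deletion libraries. Only HTA1, HTA2, HTB2 and HHO1 stayed lower than in both. The 8 core genes took 0.364% of its counts, against 0.385% and 0.367% in young deletion and 0.446% and 0.406% in old wild-type libraries. HTA2, for example, had 269 CPM against 510.5 and 491 CPM in young deletion cells and 401 and 312 CPM in old wild-type cells. HHO1 had 53.1 CPM, against 91.0 and 92.4 CPM in young deletion and 79.9 and 85.1 CPM in old wild-type cells. On the log2 CPM scale (prior count of 2) the difference from young deletion cells ran from -0.89 (HTA2) to -0.25 (HHT1), with a median of -0.57 against 0.05 for all mRNAs. The difference from old wild-type cells ran from -0.63 (HHO1) to -0.20 (HHT1), with a median of -0.35 against 0.00.

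Deletion and wild type did not differ in any histone gene at the same age by the test. In mRNA of young cells 0 of 10 were called at a background of 0% (0 of 5991 genes in edgeR and 0 in DESeq2). An unadjusted p under 0.05 was seen for 0 of the 10 and for 99 of all genes. Their log2 fold changes, deletion against wild type, lay between -0.43 (HTB2) and 0.20 (HTZ1), with SEs of 0.20 to 0.28. In footprints of young cells 0 of 10 were called at a background of 0% (0 of 5308 genes in edgeR, 1 in DESeq2), 0 of the 10 and 92 of all genes had an unadjusted p under 0.05, and values lay between -0.10 (HTZ1) and 0.29 (HTB1).

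In footprints of old cells 0 of 10 were called at a background of 0% (0 of 5308 genes in edgeR, 22 in DESeq2), and 270 of all genes had an unadjusted p under 0.05. HHO1 was the member with such a p, and DESeq2 did not call it. Its log2 fold change was -0.62 ± 0.17 (adjusted p = 0.579), with 127 and 113 CPM in wild type and 68.8 and 87.1 CPM in the deletion. The groups did not overlap. A fit to the old groups alone, whose replicates lay close together, called HHO1 (-0.61, adjusted p = 0.00610) among 323 genes. The other 9 genes lay between -0.27 (HTB2) and 0.01 (HHT1).

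The difference between the strains in the age response of footprints was tested as an interaction, and 0 of 10 genes were called at a background of 0% (0 of 5308 in edgeR, 4 in DESeq2, 152 with an unadjusted p under 0.05). DESeq2 called 0 of the 10. HHO1 had the largest value, -0.85 ± 0.24 (unadjusted p = 0.00836, adjusted p = 1), and HTB1 was next with -0.47 ± 0.23. The 7 calls in the deletion and 1 in wild type are therefore not shown to be a difference between strains.

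The level of footprints relative to mRNA differed among the histone genes, and was highest for HHO1. Footprints were set against mRNA of the same group in a fit that scaled all 15 libraries together, so its log2 ratios are relative to the other messages and are not ratios of the CPM given above. Unique positions were fewer at 28 than at 50 bases, most so in H4 (54.4% against 78.7%) and little in H2B (97.3% against 100%). If shared reads were dropped, the ratios of H4, H3 and H2A genes would be lowered more than those of H2B, HTZ1 and HHO1. The size of this effect was not tested. Both assays used aliquots of the lysates, and the replicate number was therefore also used as a block (the lysate block). In young wild type 4 of 10 were called, all higher in footprints, at a background of 48.5% of 6050 genes (4 of 10 at 67.8% with the block). These were HHO1, HTB1, HTB2 and HTA1. In young deletion cells 5 of 10 were called, all higher, at 50.8% (7 of 10 at 69.2% with the block), and in old wild type 2 of 10 at 43% (5 of 10 at 65.1% with the block, 4 higher and HHF1 lower). These shares of members were near or below the background in either direction. Of all genes, 19.9% were called higher in footprints in young wild type, 18.6% in old wild type and 20.5% in young deletion cells, and the other calls were lower.

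By the fitted values HHO1 had the highest ratio in young and old wild type and in young deletion cells. In young deletion lysate 2, however, HTB1 lay above it (1.74 against 1.63). In the lysates its log2 ratio was 1.87 and 1.51 in young wild type, 1.23 and 0.97 in old wild type, 1.87 and 1.63 in young deletion cells, and 0.90 in the old deletion lysate with both assays. The fitted values were 1.68 ± 0.19 (adjusted p = 6.38e-05), 1.11 ± 0.19 (adjusted p = 0.000903) and 1.76 ± 0.19 (adjusted p = 4.28e-05). Ratios of old wild-type lysates were below those of the young ones without overlap. HHO1 in young wild type ranked above 96.1% of the 6050 genes on this ratio.

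HTB1 had 1.12 and 0.98 in young wild type, 0.56 and 0.65 in old wild type, and 1.36 and 1.74 in young deletion lysates. Its fitted ratio was 1.04 ± 0.22 (adjusted p = 0.00270) in young wild type and 1.54 ± 0.22 (adjusted p = 0.000263) in young deletion cells. In old wild type it was 0.60 ± 0.22 (adjusted p = 0.0454), a call lost without old RNA-seq replicate 2 (0.35, adjusted p = 0.312) or without old footprint replicate 1 (0.39, adjusted p = 0.286). The other H2B gene, HTB2, had 0.81 ± 0.23 (adjusted p = 0.0141) in young wild type and 1.22 ± 0.23 (adjusted p = 0.00148) in young deletion cells. In old wild type HTB2 had 0.55 ± 0.23 (adjusted p = 0.0778), and with the lysate block it was called (0.55, adjusted p = 2.83e-05).

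The copies of H2A had different ratios in young cells. HTA1 had 0.65 and 0.73 in young wild-type lysates and 0.53 and 1.00 in young deletion lysates, and HTA2 had -0.27 and -0.04 in young wild type and 0.11 and -0.10 in young deletion lysates. HTA1 was called in young wild type (0.69 ± 0.21, adjusted p = 0.0202) and in young deletion cells (0.74 ± 0.21, adjusted p = 0.0147), and HTA2 in neither (-0.15 ± 0.19 and 0.01 ± 0.19). In old wild-type lysates HTA1 had 0.15 and 0.14 and HTA2 0.09 and 0.00. The difference between the copies was not tested. The calls of HTA1 and HTB2 in young wild type were lost without RNA-seq replicate 1 (0.57 and 0.48) and without footprint replicate 2 (0.56 and 0.70), which left 2 of 10 called.

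The H4 genes had lower ratios than HHO1 and the H2B genes. They were also ranked among genes at a mean of 10 CPM or more in both assays. HHF1 and HHF2 lay above 54.9% and 41.4% of these genes in young wild type. In old wild type they lay above 26.5% and 29.7%, and in young deletion cells above 67.8% and 47.4%. HHF1 had 0.23 ± 0.19 in young wild type, -0.27 ± 0.19 in old wild type and 0.50 ± 0.19 (adjusted p = 0.0464) in young deletion cells. The last of these calls was lost when either young deletion footprint library or RNA-seq replicate 2 was left out (adjusted p from 0.0740 to 0.182). With the lysate block, HHF1 was called lower in footprints in old wild type (-0.28, adjusted p = 0.0243), with the limit of shared reads given above. HHT1 was called higher with the block in old wild type (0.29, adjusted p = 0.0196), and HHT1 (0.39, adjusted p = 0.00137) and HHT2 (0.44, adjusted p = 0.000408) in young deletion cells. HTA2, HHF2 and HTZ1 were not called with or without the block. Library-size scaling alone moved the median of all ratios by -0.58 to -0.57. In young wild type the calls of HTA1 (0.11, adjusted p = 0.633), HTB2 (0.23, adjusted p = 0.391) and HTB1 (0.46, adjusted p = 0.0586) then ended, HHO1 stayed called (adjusted p = 0.000619), and HTA2 (-0.73, adjusted p = 0.00370), HHT1 (-0.48, adjusted p = 0.0325) and HHF2 (-0.63, adjusted p = 0.00701) were called lower. In young deletion cells HTA1 (0.18, adjusted p = 0.443) and HHF1 were lost, HTB1, HTB2 and HHO1 stayed called, and HTA2, HHF2 and HTZ1 were called lower. In old wild type HTB1 was lost (0.03, adjusted p = 0.903), HHO1 stayed called (0.53, adjusted p = 0.0348), and HTA2, HHF1 and HHF2 were called lower.

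**Figure D3:**
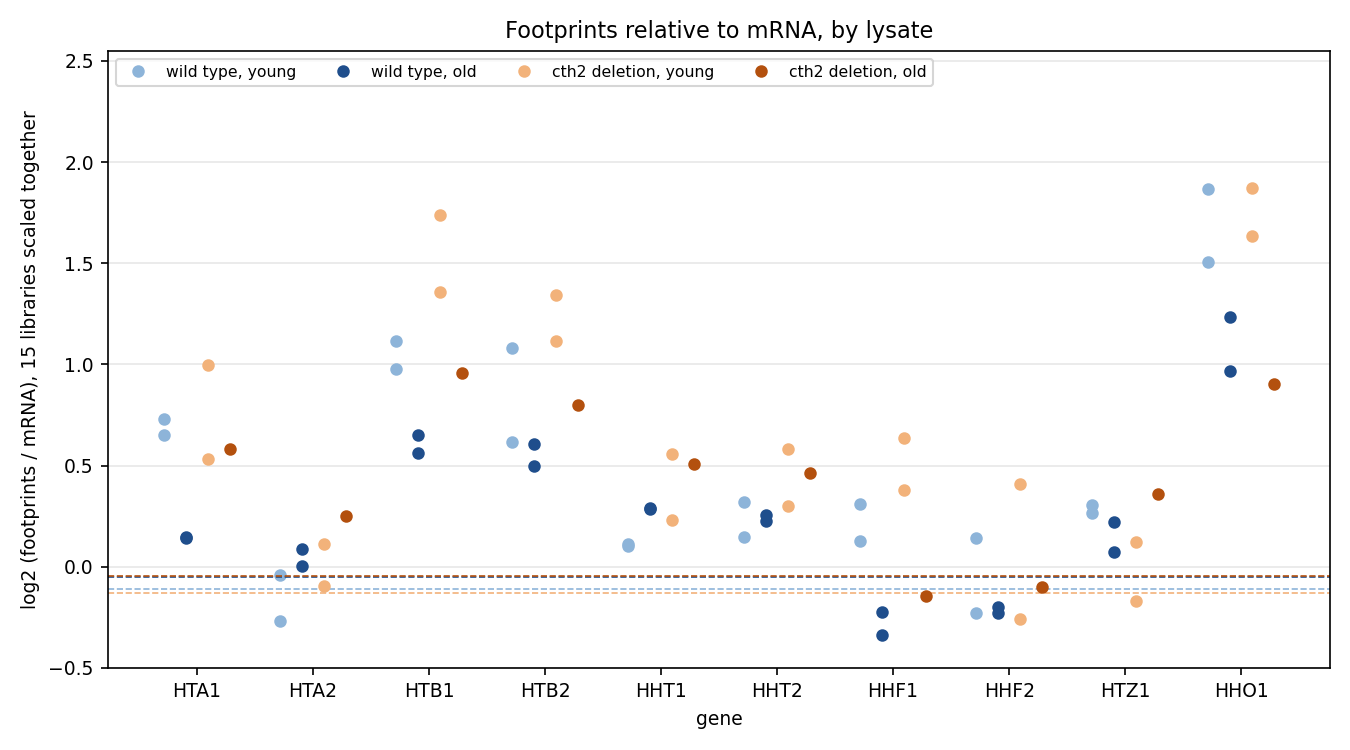
Log2 ratio of footprints to mRNA in each lysate for each histone gene, with all 15 libraries scaled together; dashed lines mark the median of all 6050 genes in each group, from -0.13 to -0.05. HHO1 lies between 0.97 and 1.87 in the lysates of young and old wild type and of young deletion cells. It is highest in each of them except young deletion lysate 2, where HTB1 (1.74) lies above it (1.63). In the old deletion lysate HTB1 (0.96) also lies above HHO1 (0.90). Library-size scaling alone moved the median of all genes by -0.58 to -0.57. With it HHO1 was called in all 3 groups tested, HTB1 and HTB2 in young deletion cells only, and HTA1 in none.

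Translational efficiency (the ratio above, tested for its change) did not differ with age in wild type for any histone gene without the block, with 0 of 10 called at a background of 0.0661% of 6050 genes. DESeq2 called 0 of the 10. In edgeR 0 of the 10 and 410 of all genes had an unadjusted p under 0.05. The values ran from -0.57 (HHO1) to 0.20 (HTA2), with a median of -0.21 against 0.05 for all genes. With the lysate number as a block, same-numbered libraries of the assays were assumed to share a lysate. Then 3 of 10 were called at a background of 6.79%, all lower in old cells. These were HTA1 (-0.55, adjusted p = 0.0255), HHF1 (-0.50, adjusted p = 0.0399) and HHO1 (-0.58, adjusted p = 0.0416). Deviations of same-numbered libraries correlated at 0.725 in young but only 0.130 in old wild type, so the pairing is not borne out there. Between strains in young cells 0 of 10 were called at a background of 0% (0 of 6050 in edgeR and in DESeq2, 107 with an unadjusted p under 0.05), and values ran from -0.32 (HTZ1) to 0.49 (HTB1). With the block 0 of 10 were called at a background of 0.0661% (4 of 6050). In old deletion cells, with both footprint libraries set against the 1 mRNA library, the ratio minus that of young deletion cells had a median of -0.17 over the 10 genes, against 0.04 for all genes, with no test.

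The division of reads within a pair of copies also varied. Each share has an exact (Clopper-Pearson) 95% binomial interval of 1.06 to 3.38 percentage points to either side, which covers counting error only. HTA2 gave 59.6% and 54.4% of the H2A mRNA counts of young wild type, against 48.5% and 47.6% at the old age. In footprints the share was 43.8% and 41.2% in young and 47.5% and 45.2% in old wild-type cells, and 40.3% and 37.0% in young and 44.2% and 44.0% in old deletion cells. In deletion mRNA it was 47.4% and 55.6% in young and 49.9% in old cells. The share of HTA2 was thus lower with age in wild-type mRNA and higher with age in the footprints of both strains, without overlap, whereas in deletion mRNA the old value lay within the young range. The 95% intervals of the nearest young and old libraries overlapped in the footprints of both strains, but not in wild-type mRNA. With 2 libraries against 2 no exact test over samples can pass, and none was made.

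For H3 the share differed between replicates of young cells. HHT2 gave 60.7% and 49.2% of the H3 mRNA counts of young wild type, and 46.2% and 61.9% of those of young deletion cells. Its share of footprints differed the same way, with 61.3% and 53.0% in young wild type and 52.3% and 57.5% in young deletion cells. In every old library, of either strain and assay, the share lay between 50.2% and 52.6%. The summed H3 level in young wild-type mRNA varied less, 1642 ± 36.2 CPM, than HHT1 (738 ± 117 CPM) or HHT2 (904 ± 154 CPM) alone. HTB2 gave 33.8% to 46.1% of H2B counts and HHF2 47.1% to 58.6% of H4 counts over the 15 libraries. The replicate numbers are those of the labels and carry no order.

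**Figure D4:**
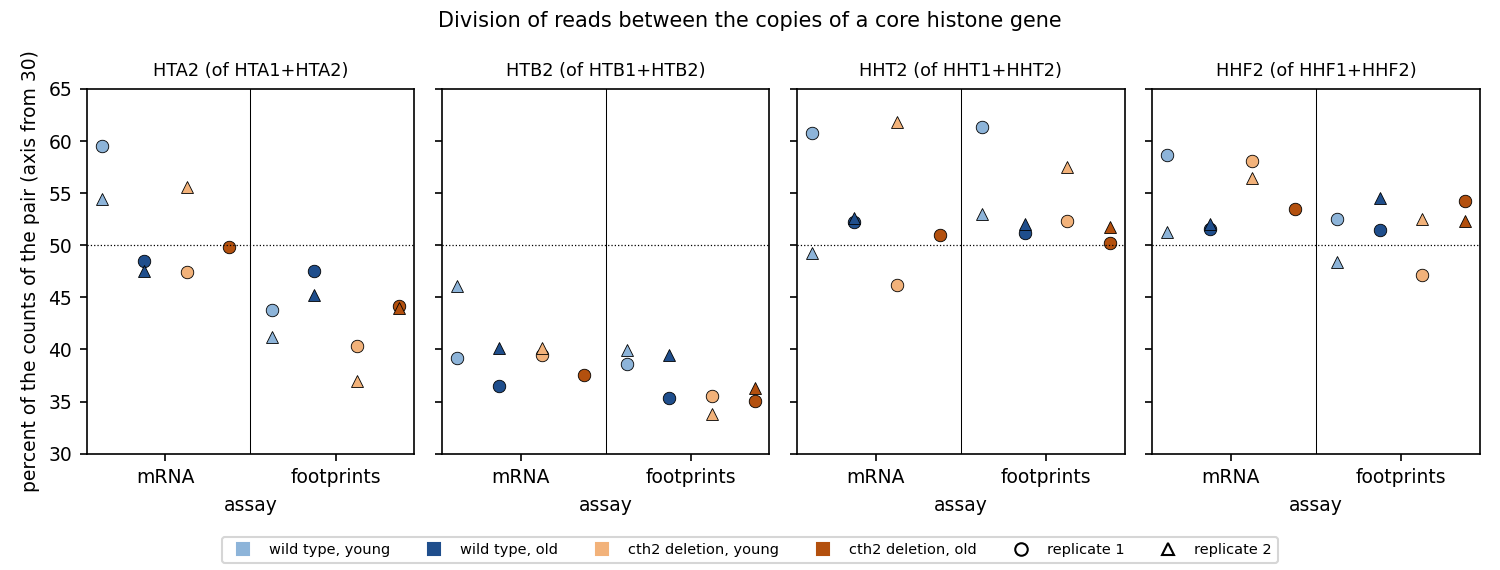
Percent of the counts of each pair that came from the copy HTA2, HTB2, HHT2 or HHF2, by library, for mRNA and footprints; circles are replicate 1, triangles replicate 2, colours give strain and age, and the axis starts at 30%. HHT2 spreads from 46.2% to 61.9% in young cells and stays within 50.2% to 52.6% in old ones.

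Across the 15 libraries, with each gene's log2 CPM centred on the mean of its assay, the 28 pairs of core genes had correlations from 0.10 to 0.98 with a median of 0.79. HTB1 and HHF1 had the highest value (0.98), and the H3 copies HHT1 and HHT2 the lowest (0.10). HTZ1 correlated with HTA1 at 0.77, and HHO1 with HHF1 at 0.88. The 5 genes most like the mean profile of the core genes, out of 4568 ranked, were CYC1 (0.97), which encodes a cytochrome c, APA1 (0.96), ASN2 (0.96), OLA1 (0.96) and ADK1 (0.95), the right-hand neighbour of HTA1. The libraries share lysates and an age difference, so these correlations are descriptions.

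Each pair of divergent core genes shares the DNA between them, which holds their promoters. The letters GCGAAAAA, the start of an activating element described in yeast core histone promoters, were searched on both strands. They occur at 2 places between HTB1 and HTA1 (chrIV:914713-915529, 817 bases), at 1 place between HHT2 and HHF2 (676 bases), and at none between HTA2 and HTB2 (699 bases) or HHF1 and HHT1 (646 bases). HTZ1 and HHO1 had none in the 700 bases before the start codon. Only exact matches were counted, so the absence of these letters does not show that the element is absent. Among 5999 genes, 7.17% had these letters in that window and 0.350% had them at 2 or more places. The places between HTB1 and HTA1 are shown because both extend the letters in the same way; capitals mark the match.
HTB1 to HTA1, chrIV:914957-914972, minus strand: GCGAAAAAatgagaac
HTB1 to HTA1, chrIV:914992-915007, plus strand: GCGAAAAAgtgagaac

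Genes that act on histones were counted from lists of known roles. In deletion footprints, where 17.2% of all genes were called with age, the called shares of the first lists were 1 of 11, 2 of 14, 2 of 12 and 1 of 3 genes, and such counts near the background say nothing particular to these lists. Of 11 regulators of histone gene transcription (the HIR complex, SPT10, SPT21, SBF and MBF subunits and others), 0 passed the test with age in wild-type mRNA or footprints, and 1 fell in deletion footprints, SWI6 (-0.74 ± 0.14, adjusted p = 0.0181), a subunit of SBF and MBF. Of 14 chaperones and assembly factors, HAT1, a histone acetyltransferase subunit, rose in deletion footprints (0.87 ± 0.21, adjusted p = 0.0338). SPT6, a histone chaperone that acts in transcription elongation, fell in them (-0.86 ± 0.21, adjusted p = 0.0354). Of 12 SWR1 complex genes, SWC5 fell (-0.83 ± 0.20, adjusted p = 0.0352) and SWC7, at 4.96 CPM on average, rose there. Of 3 genes for removal of excess histones, PSH1, which marks the centromeric H3 variant for degradation, rose (0.88 ± 0.20, adjusted p = 0.0312). Neither centromeric H3, CSE4, nor its chaperone was called with age.

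Lists of cell cycle genes and daughter cell markers stand beside the age results. Of all genes, 17.2% were called with age in deletion footprints (8.06% lower) and 2.98% in wild-type footprints (0.961% lower). Counts of list genes near these shares say nothing particular to the lists. Of 22 genes of G1/S and DNA replication, 1 rose (IRR1) and 1 fell (CLN1) in deletion footprints, with a median of -0.03. In wild type none was called, with medians of 0.43 in mRNA and 0.37 in footprints. Of 12 G2/M genes, SWI5, a transcription factor of the M/G1 transition, fell in footprints of both strains (-0.81 ± 0.14 in wild type and -0.63 ± 0.14 in the deletion). Of 12 daughter-specific genes, 7 fell in deletion footprints, among them PRY3 (-2.01 ± 0.14), EGT2 (-1.85 ± 0.24) and CTS1 (-1.41 ± 0.26), with a list median of -1.11. Their summed footprint level was 2834 to 3157 CPM in young and 1183 to 1319.8 CPM in old deletion cells. In wild type it was 2216 to 2766 CPM in young and 2344 to 2551 CPM in old cells. Their summed mRNA level in wild type was 1407 to 1945 CPM in young and 2064 to 2303 CPM in old cells, with a list median of 0.41. In deletion mRNA it was 1647 to 1694 CPM in young cells and 1418 CPM in the single old library. None of the 12 was at 0 counts in any library. In a list of 5 abundant general yeast genes, PGK1 and TDH3 fell in wild-type footprints and PGK1, TDH3 and PMA1 in deletion footprints. The medians of this list were -0.71 in wild-type and -0.95 in deletion footprints, against -0.58 and -0.87 for the 10 histone genes. All 5 genes had values below 0 in both strains at TMM scaling. No gene of any list was called with age in wild-type mRNA, between strains, in the age-by-strain test or in translational efficiency without the block. The part of cell type or cell cycle composition in the histone results was not tested.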

How the data were processed

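RNA-seq and ribosome profiling libraries came from aliquots of cell lysates, per the labels' protocols. Poly(A)-selected mRNA was hydrolysed in alkali, and footprints came from the 80S fraction after RNase I. The authors deposited raw counts per gene with a gene length, per the file headers, with no normalization. The submitters' processing notes name cutadapt 3.4, Bowtie 1.1.2, STAR 2.7.9a and build R64; the counting program, its use of strand and its handling of reads with several matches are not given in the sources used here. Total counts were 1629345 to 6198680 per library, and 3 counts correspond to 0.484 to 1.84 CPM, a floor that covers counting error only. No pair of replicates agreed within sampling noise. Of 7127 gene identifiers, 6047 matched R64.

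Counts were analysed with edgeR 4.0.16 in R 4.3.3 (TMM, filterByExpr by group, robust quasi-likelihood fit with 1 mean per group, Benjamini-Hochberg adjustment over all genes tested). The mRNA fit held 7 libraries and 5991 genes, the footprint fit 8 and 5308, and the joint fit 15 and 6050; common coefficients of variation were 22.7%, 21.5% and 22.1%. The SE is the absolute log2 fold change over the square root of F. The script was tested on simulated counts. Alternatives were DESeq2 1.42.0, other scalings, no filter on low counts, fits to the compared groups alone, replicate blocks and each library left out. Counts of old deletion RNA-seq, with 1 library, gave values without a test. Same-numbered libraries of the 2 assays were taken as paired, because the labels say that aliquots of the lysates served both. Their deviations from the group means correlated at 0.725 in young wild type, 0.130 in old wild type and 0.764 in young deletion cells over the 5284 genes tested in both assays, and at 0.610, 0.0767 and 0.666 over 6050 genes. Replicate numbers did not pair ages or strains. The members were given by identifier. They, the gene lists and the naming rule (members, TIS11, up to 3 called genes per list and direction at 10 CPM or more, and the 5 genes with the most similar profile) were chosen with earlier results of these data known; SWC7, below 10 CPM, falls outside that rule and was named after its values were seen. The result of 1 gene of the G2/M list is not reported here. Sequences were read from the R64 genome, and coordinates are 1-based.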

Additional observations from a re-analysis of the deposited data

Results flagged for a closer look

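HHO1, the gene of linker histone H1, was set apart because its strain difference in footprints had opposite directions at the 2 ages, without overlap. The share of all genes that met this rule was not determined. It was higher in both young deletion libraries (230.2 and 203 CPM) than in both young wild-type libraries (183 and 185 CPM), and lower in both old deletion libraries (68.8 and 87.1 CPM) than in both old wild-type libraries (127 and 113 CPM). The test of the difference itself, the age-by-strain interaction in edgeR, gave a log2 value of -0.85 ± 0.24 (SE) that was not called (adjusted p = 1). In mRNA, the single old deletion library was also the lowest, at 53.1 CPM. A cause was not tested.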

How the results depend on the processing

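Each histone gene was refitted under every alternative in all 12 comparisons, and sign changes are counted as reversals only where a value passed the test. With DESeq2 size factors, 119 of 120 values kept their direction and side of the threshold or changed sign without a call, with no filter 118, with DESeq2 117, with the compared groups alone 108, with the replicate block 108, with library size alone 101 and with 1 library left out 568 of 600. Library size alone gave 27 sign changes between uncalled values and leaving out a library 70. It reversed footprints against mRNA in young wild type (HHT1 -0.48, summed H3 -0.41, summed H4 -0.50), old wild type (HTA2 -0.52, summed H2A -0.47) and young deletion cells (HTA2 -0.56, HHF1 -0.067, HHF2 -0.50, summed H3 -0.17).

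Counts of called histone genes changed as follows. Footprints with age in wild type (1 called) gave 4 with DESeq2 and 0 with library size, the groups alone, the replicate block or either crossed block, and 0 to 0 with a library left out. Footprints with age in the deletion (7) gave 4 with library size, with the groups alone and with the replicate block, and 0 to 6 with a library left out. Footprints between strains in old cells (0) gave 1 with the groups alone, and translational efficiency with age (0) gave 3 with the replicate block. Footprints against mRNA gave 2 with the groups alone and 2 to 4 with a library left out in young wild type (4). In old wild type (2) they gave 1 with DESeq2 size factors or no filter, 4 with library size, 5 with the groups alone or the replicate block, and 1 to 2 with a library left out. In young deletion cells (5) they gave 3 with the groups alone. A block on replicate number changed no other count of histone calls by over 1.5 times. Same-numbered replicates correlated at -0.19 to 0.01 between ages and -0.81 to -0.02 between strains, so blocks with crossed numbers, chosen after seeing the data, were tried. Crossed between strains, the block called 235, 108 and 914 genes with age against 57, 158 and 914. Crossed between ages it called 59 and 251 in footprints, and the plain block 0, 46 and 252.

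Over all genes, calls with age ran from 1 to 15 in wild-type mRNA, from 14 to 77 in wild-type footprints and from 46 to 1206 in deletion footprints with a library left out, and DESeq2 called 260, 316 and 932. The cause of these changes was not tested, except that a library left out leaves a lone sample, assumed to vary like the other groups. With 2 libraries a group, differences within the spread of young replicates were not detectable.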
